A study of Mus musculus with 2 samples.

Results

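Transcripts of 8 genes of the adenosine-to-inosine editing machinery were followed in cultured mouse embryonic fibroblasts, the connective tissue cells that grow out of embryos. They are the deaminase genes Adar and Adarb1, their relative Adarb2, and Wwp2, Aimp2, Srsf9, Zfr and Dhx9, whose products are known to raise or lower the amount or the activity of the deaminases. The genes were taken by symbol from an expression table of 24015 genes, and all 8 were found. The study has 1 library of cells labelled Adar2-WT (genotype Adar2+/+) and 1 library of cells labelled Adar2-KO (genotype Adar2-/-). Both cultures were grown in DMEM with fetal bovine serum and antibiotics. The labels name neither the deleted part of the gene nor the strain, the age of the embryos, the passage or the number of embryos behind a culture. With 1 library per genotype, the differences below have no replicate check.

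ADAR enzymes bind double-stranded RNA and deaminate adenosine to inosine, which sequencing reads as G. Adar encodes ADAR1, whose longer isoform is induced by interferon and whose shorter isoform is made constitutively, and Adarb1 encodes ADAR2, which edits many recoding sites. Adarb2 encodes ADAR3, which binds RNA but has no known deaminase activity and is known mainly from brain. Several proteins act on these enzymes after their genes are transcribed, so a transcript level is not a measure of enzyme activity.

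Levels are RPKM, reads scaled to gene length and library size. They rested on 9446911 reads in WT-labelled cells and 9546996 in KO-labelled cells. Intervals of a level or of a ratio of reads are exact 95% intervals and cover counting error only. Of the 8 genes, 7 reached 1 RPKM in either library and were compared, as were 13867 genes of the table. All 11 fibroblast markers reached that level (9.40 to 96.2 RPKM in WT-labelled cells and 11.3 to 97.9 RPKM in KO-labelled cells). The fibroblast marker Thy1 differed most (9.40 and 72.1 RPKM). Of 5 macrophage markers (sum 12.9 and 11.1 RPKM) 3 reached 1 RPKM. They were Cd68 at 5.15 and 7.40 RPKM, Lyz2 at 5.91 and 3.67 RPKM and Csf1r at 1.75 and 0.081 RPKM. Ptprc was at 0.075 and 0 RPKM and Emr1 was listed at 0 in both libraries. The 4 endothelial markers were each lower in KO-labelled cells, with a sum of 3.998 and 0.409 RPKM, led by Tek at 2.39 and 0.134 RPKM. Of 4 epithelial markers (sum 2.04 and 1.12 RPKM) Cdh1 was at 1.80 and 0.071 RPKM and Krt8 at 0.059 and 1.04 RPKM. Of 4 neuronal markers Tubb3 was at 20.1 and 15.7 RPKM and Syt1 at 0.483 and 0.348 RPKM, and Rbfox3 and Snap25 were listed at 0. The part of these markers' cell types in the values below was not tested.

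The enzyme genes differed in opposite directions. Adarb1, the gene named by the genotype, stood at 18.4 RPKM on 1155 reads in WT-labelled cells and at 25.8 RPKM on 1633 reads in KO-labelled cells. Its transcript was 1.40 times as high in the library labelled as lacking the enzyme, with a counting interval of 1.30 to 1.51 times. The label is thus not borne out by the level of the whole gene, and a deletion of part of a gene need not show there, so the libraries are named by their labels throughout. Adar stood at 28.0 RPKM on 1600 reads in WT-labelled cells and at 18.7 RPKM on 1081 reads in KO-labelled cells. Its KO-labelled level was 0.669 times the WT-labelled level (0.618 to 0.723 times). The interval around each enzyme's level in 1 library did not overlap that in the other. In the authors' deposited table the GFOLD value, a log2 fold change shrunken toward 0 where reads are few, was 0.41 for Adarb1 and -0.40 for Adar.

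The balance of the enzyme transcripts was therefore inverted while their sum was close. Adarb1 stood at 0.657 times the level of Adar in WT-labelled cells and at 1.38 times in KO-labelled cells. As a share of the summed RPKM of Adar and Adarb1, Adarb1 made up 39.7% and 57.9%. These values do not show whether the Adarb1 transcript of KO-labelled cells encodes an active enzyme. The sum itself was 46.5 RPKM in WT-labelled cells and 44.5 RPKM in KO-labelled cells. Adarb2 had 2 reads in WT-labelled cells (0.029 RPKM) and 0 in KO-labelled cells, where a count of 0 allows up to 0.043 RPKM (3 reads). Neither value is above that floor, and no ratio is given.

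**Figure D1:**
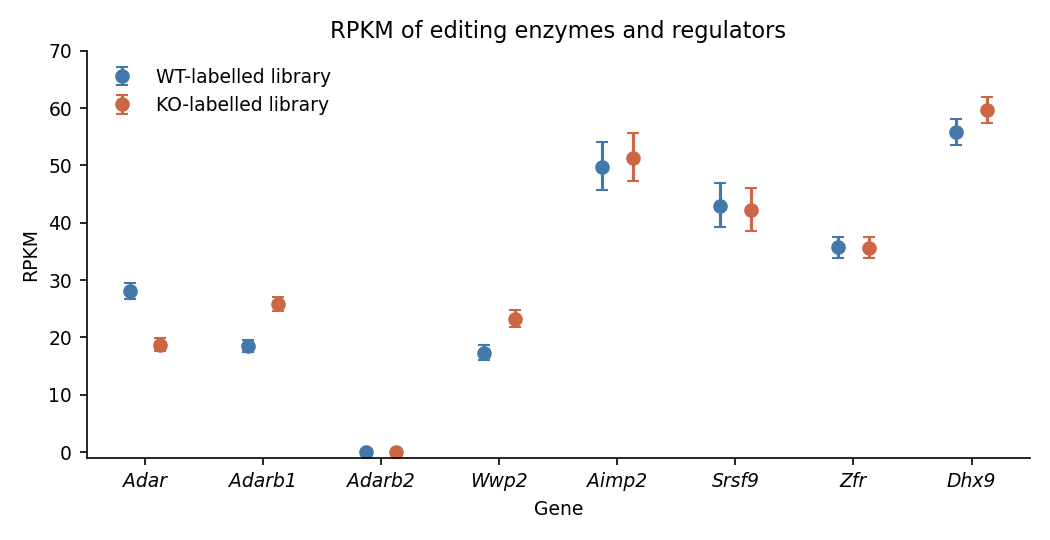
RPKM (linear vertical axis) of the 8 genes (horizontal axis) in the WT-labelled and KO-labelled libraries; points are the level in the single library and bars its exact 95% Poisson interval, which covers counting error only. Adar, Adarb1 and Wwp2 have intervals that do not overlap between the libraries, and Adarb2 lies at the bottom in both; for Zfr the interval uses the smaller of the read numbers its values allow.

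Regulators that act on the enzymes' stability were next. Wwp2, a ubiquitin ligase known to mark ADAR2 for degradation, stood at 17.3 RPKM on 700 reads in WT-labelled cells and at 23.2 RPKM on 949 reads in KO-labelled cells. The KO-labelled level was 1.34 times as high (1.22 to 1.48 times), and Wwp2 was the regulator that differed most, since the other 4 lay within 6.93%. Its difference lay on the same side as that of Adarb1, with a log2 ratio of 0.40 against 0.46 on the scale of RPKM + 1. Aimp2, a scaffold of the multisynthetase complex that is also known to promote loss of ADAR proteins, had 49.8 RPKM (557 reads) and 51.4 RPKM (581 reads). Its log2 ratio of reads had an interval of -0.12 to 0.22, so a difference between these libraries was not detectable at this depth.

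Repressors of editing were close in the libraries. Srsf9, an SR splicing factor that lowers editing at some sites, stood at 43.0 RPKM on 508 reads in WT-labelled cells and at 42.2 RPKM on 504 reads in KO-labelled cells. Counting error put its log2 reads ratio between -0.21 and 0.15. Zfr, a zinc finger RNA-binding protein that represses editing, had 35.69 and 35.66 RPKM. Its printed values fit 2 pairs of whole reads, 1550 and 1565 or 4445 and 4488, and the wider interval of the log2 ratio, that of the first pair, was -0.10 to 0.10. Dhx9, a helicase that unwinds RNA duplexes and is known to lower editing at many sites, had 55.8 RPKM (2431 reads) and 59.6 RPKM (2627 reads). Its KO-labelled level was 1.07 times the WT-labelled level, and its interval of 1.01 to 1.13 times excluded equality only narrowly.

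Against the other genes of the table these differences were moderate. None of the 7 genes was 2-fold apart on the scale of RPKM + 1, where 4.42% of the compared genes were at least 2-fold higher in KO-labelled cells and 7.46% at least 2-fold lower. No p-value was computed, since no test across genes is possible with 1 library per genotype. Of the 6 compared genes with a single solution for their reads, 3 (Adarb1, Wwp2 and Dhx9) had a counting interval above 0 and 1 (Adar) below 0. By sign alone 4 genes were higher and 3 lower, against 50.8% and 49.2% of all compared genes. The authors' deposited table gives a GFOLD value above 0 for 3 of the 7, below 0 for 1 and at 0 for 3, against 29.7%, 20.2% and 50.1%. Counting intervals lay above 0 for 28.0% and below 0 for 27.5% of genes, so an interval that leaves out 0 was common between these libraries. Adarb1 lay at the 87.9th percentile of log2 ratios over the compared genes, Wwp2 at the 85.8th and Adar at the 12.5th. Among the 10375 genes that reached 10 RPKM in either library, 8.05% had a higher log2 ratio than Adarb1 and 7.31% a lower one than Adar. The middle 90% of those genes ran from -0.82 to 0.60, and all 7 genes lay inside it.

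**Figure D2:**
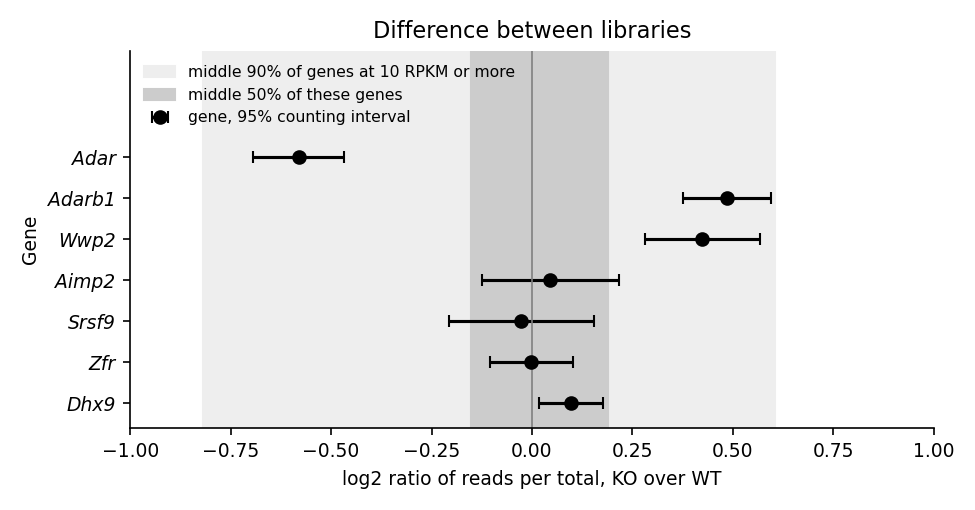
Log2 ratio of reads per library total, KO-labelled over WT-labelled (horizontal axis), for the 7 genes with at least 1 RPKM; bars are exact 95% counting intervals and the grey bands hold the middle 50% and 90% of log2 ratios (RPKM + 1) of the 10375 genes that reached 10 RPKM. Adar lies to the left of the inner band, Adarb1 and Wwp2 to its right, and Aimp2, Srsf9, Zfr and Dhx9 have their points inside it.

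The order of RPKM levels, which are per length, was the same in both libraries at the top. Dhx9 was highest, followed by Aimp2, Srsf9 and Zfr. Dhx9 and Aimp2 had overlapping intervals in WT-labelled cells (53.6 to 58.0 and 45.7 to 54.1 RPKM) and did not in KO-labelled cells (57.4 to 62.0 and 47.3 to 55.7 RPKM). Aimp2 and Srsf9 overlapped in WT-labelled cells (Srsf9 39.3 to 46.9 RPKM) and not in KO-labelled cells (38.6 to 46.0 RPKM). Adar followed Zfr in WT-labelled cells, but in KO-labelled cells it lay below Adarb1 and Wwp2 as well. Adarb1 and Wwp2 had overlapping intervals in WT-labelled cells (17.4 to 19.5 and 16.1 to 18.6 RPKM) and in KO-labelled cells (24.6 to 27.1 and 21.8 to 24.7 RPKM). No gene of the table exceeded 1.01 reads per base in WT-labelled cells or 1.19 in KO-labelled cells. The 7 genes ranged from 0.164 reads per base for Wwp2 in WT-labelled cells to 0.569 for Dhx9 in KO-labelled cells. The highest level of any gene was 107 RPKM in WT-labelled cells and 124 RPKM in KO-labelled cells. A ceiling near these values would compress levels and ratios, most of all for the higher genes such as Dhx9. The order and closeness of the higher genes are read with that limit, and the cause of a ceiling was not tested. Genes that overlap a member in RefSeq can share its reads, since the use of strand is not given in the sources used here. Among them are Eif2ak1 beside Aimp2 (23.1 and 24.0 RPKM) and Gatc beside Srsf9 (31.2 and 38.1 RPKM), and Chrnb2 beside Adar was low (0.374 and 0.214 RPKM).

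Other genes reported to act on editing were close as a group. Of 30 listed, 29 were in the table and all 29 were compared. None was 2-fold apart, against 11.9% of all compared genes. That share takes in genes from 1 RPKM up, while the lowest of the 29, Strbp, had 6.97 and 6.56 RPKM. In KO-labelled cells 19 were higher and 10 lower (50.8% and 49.2% of all compared genes). The median log2 ratio was 0.06, against 0.01 over all compared genes. The ends of the list were Drosha, the nuclear microRNA processing enzyme (14.5 and 21.2 RPKM), and the cleavage factor gene Cpsf6 (27.4 and 37.0 RPKM), higher in KO-labelled cells, and the importin gene Kpna1 (28.2 and 24.9 RPKM) and the kinase gene Akt2 (29.8 and 26.4 RPKM), lower there. Counting intervals lay above 0 for 9 and below 0 for 3 of the 27 members with a single solution for their reads, against 28.0% and 27.5% of all genes.

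Relatives of the enzymes by domain gave a wider range. Genes with double-stranded RNA-binding domains had 16 compared members of 19 (Adad1, Adad2 and Adarb2 were too low), with a median log2 ratio of 0.03. None was 2-fold apart, against 11.9% of all compared genes, a share that again includes genes at lower levels than these. Adar had the second lowest ratio of the 16, after the interferon-induced kinase gene Eif2ak2 (53.1 and 33.8 RPKM). Stau2, an RNA transport gene, had the highest ratio (8.24 and 12.8 RPKM), ahead of Drosha. The tRNA adenosine deaminase genes, whose products act on the anticodon loop of tRNA, were each higher in KO-labelled cells, as were 50.8% of all compared genes. The levels were 9.65 and 12.9 RPKM for Adat1, 9.33 and 14.3 for Adat2 and 14.2 and 20.8 for Adat3, with log2 ratios of 0.38 to 0.57.

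Within its own family, each regulator could be set beside its relatives. Of 8 compared NEDD4-type ubiquitin ligases, 3 were higher and 5 lower in KO-labelled cells, against 50.8% and 49.2% of all compared genes. Their median log2 ratio was -0.04. Wwp2 had the highest ratio of those with at least 10 RPKM, followed by Nedd4 (58.8 and 59.1 RPKM), and Smurf2 the lowest (39.99 and 36.0 RPKM). Below 10 RPKM, Nedd4l (2.81 and 4.41 RPKM) had a higher ratio than Wwp2. Hecw2 (2.22 and 0.619 RPKM) had a lower ratio than Smurf2. All 11 multisynthetase complex genes were higher in KO-labelled cells, as were 50.8% of all compared genes. Their median was 0.13, with Mars (51.3 and 66.6 RPKM) and Dars (31.6 and 40.7 RPKM) at the upper end and Aimp2 the closest to equality. The 10 compared SR protein genes had a median of 0.02 and ended at Srsf9 itself and at Srsf6 (46.7 and 52.8 RPKM). The DZF gene Ilf2, a relative of Zfr, had 30.5 and 30.7 RPKM and was within 2-fold, like Zfr. Of 16 DExH helicase genes, 13 were higher and 3 lower (median 0.13), against 50.8% and 49.2% of all compared genes. Counting intervals lay above 0 for 9 of the 16 and below 0 for 2, against 28.0% and 27.5%. The 1 member 2-fold apart, against 11.9% of all compared genes, was Dhx58, an interferon-induced RNA sensor (17.6 and 5.08 RPKM).

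**Figure D3:**
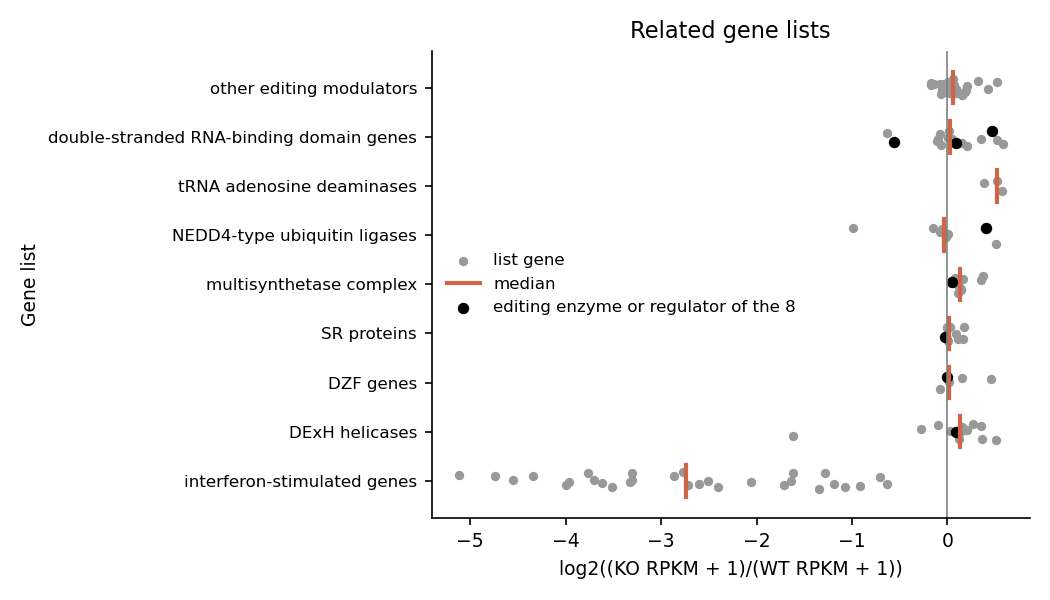
Log2 ratio on the scale of RPKM + 1, KO-labelled over WT-labelled (horizontal axis), for the compared genes of each list (rows); black points are genes among the 8, grey points the other genes, vertical bars the medians, and vertical scatter within a row carries no value. Medians of the lists lie near 0 except those of the 3 tRNA deaminase genes (0.52) and the interferon-stimulated genes (-2.74).

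Interferon-stimulated genes were lower in the same library as Adar, as were the endothelial markers. Of the 3 macrophage markers that reached 1 RPKM, Csf1r and Lyz2 were lower there and Cd68 was higher. All 30 genes on the interferon list were lower in KO-labelled cells, against 49.2% of all compared genes. Of these, 27 were at least 2-fold lower, against 7.46%. The summed level of the 30 genes was 793 RPKM against 162 RPKM. Their log2 ratios ran from -5.12 (Ifi44) to -0.63 (Eif2ak2), and that of Adar, which is not on the list, was -0.56. On the log2 ratio of reads, the counting interval of Adar (-0.69 to -0.47) overlapped those of Eif2ak2 (-0.75 to -0.55) and Stat2 (-0.88 to -0.61). A value over the whole gene does not separate the interferon-induced isoform from the constitutive one, and the part of interferon signalling in the level of Adar was not tested.

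The promoter windows of RefSeq (GRCm38.p6, 250 bases before to 50 after a start) were searched for the core of the interferon response element, GAAA, any 2 bases and GAAA, on both strands. They are shown because Adar and the interferon genes were lower in the same library. The motif was found in 11 of 23 windows of the interferon-stimulated genes (21 of the 30 genes had a window), in 3.44% of all 32851 windows and in 0 of the 10 windows of the 8 genes. Isg15, an interferon-induced ubiquitin-like modifier, holds 3 overlapping matches, of which 30 bases on chromosome 4 are printed first below, from the window chr4:156200769-156201068 on the minus strand. Adar has 3 annotated starts. The window of the third, chr3:89730468-89730767 on the plus strand, is printed second below, since it holds a shorter form of the motif, GAAANNGAA, beginning 33 bases after the start and once more near its left end. That shorter form was chosen after the window had been read, and 8.56% of all windows, 13 of the 23 interferon gene windows and 2 of the 10 windows (Adar and Aimp2) hold it. Capitals mark the longer motif in Isg15 (as far as the printed bases go) and the shorter one in Adar, and a match is a description of letters only.
Isg15: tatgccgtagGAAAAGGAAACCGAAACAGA
Adar: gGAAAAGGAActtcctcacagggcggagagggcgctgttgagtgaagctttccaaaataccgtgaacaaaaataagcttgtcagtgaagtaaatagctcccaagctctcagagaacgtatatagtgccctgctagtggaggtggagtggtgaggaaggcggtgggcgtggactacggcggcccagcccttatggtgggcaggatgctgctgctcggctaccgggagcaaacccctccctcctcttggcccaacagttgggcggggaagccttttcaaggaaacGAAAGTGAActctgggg

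Editing was read against these levels. The WT-labelled list held 654 edited sites and the KO-labelled list 110, on similar numbers of reads behind the expression table. The 75 sites in both were 11.5% of the first list and 68.2% of the second. Low levels made up more of the KO-labelled list, where 43.6% of sites were edited below 20%, against 20.3% in the WT-labelled list. Levels of 80% or more made up 14.5% of the KO-labelled and 11.8% of the WT-labelled list. Every listed site has at least 2 edited reads, so a site that is missing is not thereby unedited. Among the 579 sites listed only in WT-labelled cells, 420 lay in compared genes, and 413 of those lay in genes within 2-fold between the libraries. These 420 sites lay in 163 genes, of which 157 were within 2-fold. Most genes were, since 11.9% of all compared genes were at least 2-fold apart.

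**Figure D4:**
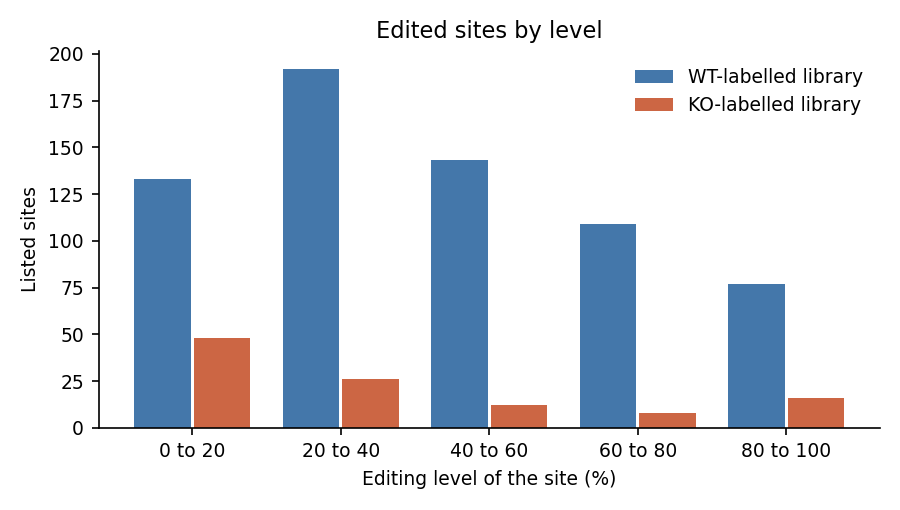
Number of listed sites (vertical axis, from 0) by editing level in steps of 20 percentage points (horizontal axis) in the WT-labelled list of 654 sites and the KO-labelled list of 110 sites. The WT-labelled list is largest at 20 to 40% with 192 sites, and the KO-labelled list at 0 to 20% with 48 sites.

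At shared sites the median difference in editing was larger than that of either enzyme transcript. Over the 55 sites covered by 10 or more reads on each side, the KO-labelled level was a median of 0.249 times the WT-labelled level (quartiles 0.153 and 0.393). At the transcript level the corresponding ratios were 0.669 for Adar and 1.40 for Adarb1. Of the 55 sites, 48 had a ratio below that of Adar, and 3 had a ratio of 1 or more. A two-sided exact test of Fisher per site, with Benjamini-Hochberg adjustment over the 55, called 33 sites (60.0%) lower in KO-labelled cells and 0 (0.0%) higher. Before adjustment 36 sites had p under 0.05. Such a test sets 1 library against another and not a genotype against another, and neighbouring sites of a gene share reads. Sites enter this comparison only if listed in both libraries, which leaves out sites with fewer than 2 edited reads in either library. The 579 sites listed only in WT-labelled cells and the 35 listed only in KO-labelled cells were therefore not tested.

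**Figure D5:**
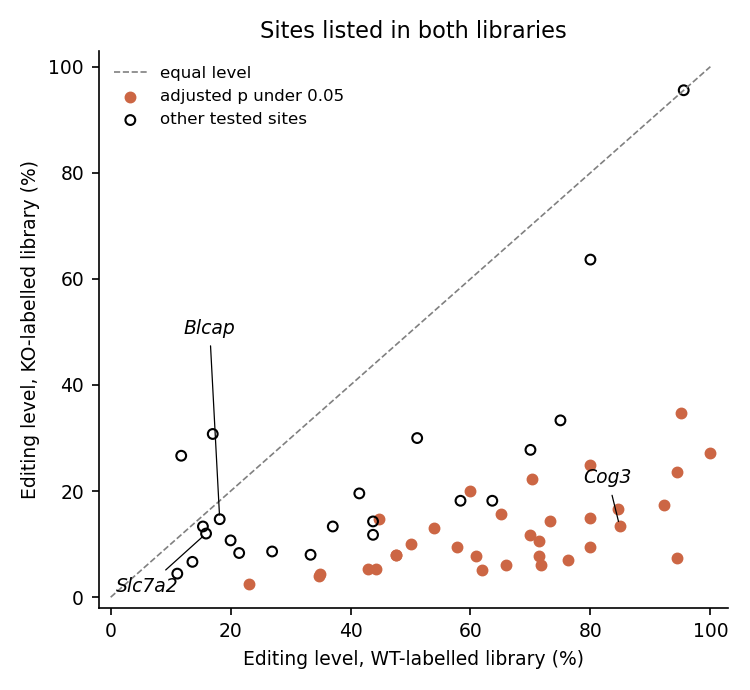
Editing level in percent at the 55 shared sites covered by 10 or more reads on each side, WT-labelled on the horizontal and KO-labelled on the vertical axis; filled points passed Fisher's exact test after adjustment and the dashed line marks equal levels. Most sites lie far below the line, among them Cog3 (84.8% and 13.5%), while Blcap (18.2% and 14.7%) lies near it.

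The lists name 0 sites under the 8 symbols in either library. Sites annotated only by a UCSC transcript identifier (47 and 12) or as intergenic (123 and 15) could not be matched to a gene and may lie in the 8, so whether these genes are edited was not determined.

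Sites known to depend mainly on 1 of the enzymes were then compared. For ADAR2 these are recoding sites such as that in Cog3, whose product tethers vesicles at the Golgi and where isoleucine becomes valine, at chromosome 14 position 76119526 (mm9). There 28 of 33 reads were edited in WT-labelled cells (84.8%, 69.1 to 93.3 by Wilson) and 5 of 37 in KO-labelled cells (13.5%, 5.91 to 28.0), with adjusted p = 1.50e-08 by the exact test. Igfbp7, an insulin-like growth factor binding protein, was edited at 2 coding sites in WT-labelled cells, in 27 of 79 reads (34.2%) and 23 of 86 reads (26.7%). The actin crosslinker gene Flna was also listed there, with 8.41% of 107 reads edited at its coding site and 6.45% of 31 reads in an intron. None of the sites of Igfbp7 and Flna was in the KO-labelled list, though these genes had 77.5 and 91.4 RPKM in that library. Gria2, Cadps and Cyfip2, known ADAR2 substrates of neurons, had at most 1.37 RPKM and no listed site. Tmem63b (38.6 and 41.0 RPKM) and Copa (27.5 and 28.0 RPKM), other known ADAR2 substrates, were well above that level and had no listed site in either library.

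Genes with sites known for ADAR1, or edited by both enzymes, came next, with Slc7a2 beside them. Azin1, an antizyme inhibitor whose serine-to-glycine site is a known ADAR1 target, was edited there in 8 of 58 reads (13.8%, 7.16 to 24.9 by Wilson) in WT-labelled cells and not listed in KO-labelled cells, at 42.0 and 46.0 RPKM. Blcap, a small conserved protein gene, had its tyrosine-to-cysteine site at 6 of 33 reads (18.2%) and 5 of 34 reads (14.7%, adjusted p = 0.780 by the exact test). The Wilson intervals of 8.61 to 34.4% and 6.45 to 30.1% overlapped over most of their range. For Slc7a2, host of a nuclear-retained RNA, which enzyme edits the sites was not determined here. It had 10 sites in its 3′ untranslated region in the WT-labelled list (4.17 to 23.4%) and 1 in the KO-labelled list. That site (chromosome 8, 42003183) stood at 7 of 44 and 3 of 25 reads (15.9% and 12%, adjusted p = 0.780 by the exact test), and the gene had 41.0 and 28.2 RPKM. Gli1 (11.7 and 14.6 RPKM) and Neil1 (13.6 and 18.1 RPKM), other known ADAR1 targets, had no listed site. Whether the difference in Cog3 is larger than that in Blcap or Slc7a2 was not tested.

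The coding sequence around 3 of these genes' sites is shown to place the edited bases in their codons. It was located in GENCODE M21 transcripts by the amino acid changes and the spacing of a gene's listed sites, with 1 match per transcript, in 3 of 3 coding transcripts of Blcap, 2 of 2 of Igfbp7 and 2 of 5 of Azin1. Capitals mark the edited adenosines.
Blcap, tyrosine and glutamine sites: atgtAttgcctccAgtggctgctgcccgtc
Igfbp7, arginine site: gcggcgcggccggcAgggggcactgcgcgc
Igfbp7, lysine site: ccgcaagaggcggaAgggtaaagccggggc
Azin1, glutamate and serine sites: gatcaaattgtggaAAgctgtcttcttcct

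In Blcap the tyrosine site (chromosome 2, 157383885) is the middle base of codon 2 and has T on its 5′ side. The glutamine site 9 bases further on (157383876), in codon 5, has C there and was listed in KO-labelled cells alone, at 4 of 39 reads (10.3%). In Igfbp7 the arginine site (chromosome 5, 77836808) opens codon 78 after C, and the lysine site (77836756), 52 bases on, is the middle base of codon 95 after A. In Azin1 the serine site (chromosome 15, 38421367) opens codon 367 after A, and that A is the synonymous site (38421368), edited in 4 of 58 reads (6.90%). ADARs are known to favour U or A, and to avoid G, on the 5′ side of the edited base, and none of these 6 sites follows G.

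Genes with the most similar values to the enzymes were found by distance in log2(RPKM + 1) over the 2 libraries. For Adar these were Pvrl3 (28.3 and 18.8 RPKM), Slc25a15 (28.0 and 18.5 RPKM) and Cask (28.2 and 19.1 RPKM). For Adarb1 they were Kdm2b (18.5 and 25.6 RPKM), Smarcd1 (18.5 and 25.9 RPKM) and Xrcc6 (18.5 and 26.1 RPKM). With 2 values per gene, such likeness says that the levels are close in these libraries.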

How the data were processed

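Poly(A)+ RNA of 1 Adar2-WT and 1 Adar2-KO culture was read from 1 end, per the series' design text, and the labels name TruSeq or Nextera as the library kit without saying which. STAR 2.4.0d, SAMtools and the mm9 build are named per the submitters' processing notes. The RPKM values, 1 column per library, were deposited by the authors in a table with the layout of GFOLD output. Its log2 fold change and GFOLD value are log2 values KO over WT per the file headers. Its empirical FDR, a false discovery rate deposited by the authors, equals 1 throughout and entered no result. The editing lists deposited by the authors give the count of reads and of edited reads per site and the editing level as a fraction. The annotation, counting rule and site caller were not given in the sources used here.

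Log2 ratios are log2((KO + 1)/(WT + 1)) of RPKM for genes that reached 1 RPKM in either library, a scale that understates low genes. Whole reads were recovered from the table, whose log2 fold change is that of reads plus 1: 17149 of 17981 genes above 0 (95.4%) had a single solution, 830 several and 2 none. On simulated data with 2308 genes above 0, 93.8% had a single solution and all of these were right. RPKM stayed the measurement, and reads gave the exact (Clopper-Pearson, Poisson) 95% intervals. The labels name no molecular identifiers, and whether PCR copies were removed was not given in the sources used here. No gene exceeded 1.19 reads per base, and counts held down by a ceiling would not follow the model behind these intervals. Every interval covers counting error alone. No gene has a replicate check and none has a p-value. Sites were tested with Fisher's exact test and Benjamini-Hochberg adjustment (threshold 0.05). Alternatives were other pseudocounts, filters, scalings, recovered reads, the GFOLD value, a correction for the ceiling in reads per base, other depth minimums, and shared sites without repeats or without levels of 95% or more.

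The genes, lists and tests were chosen with earlier results of these data known. Named genes are the 8, per list the 2 largest and 2 smallest log2 ratios at 10 RPKM or more, and the 3 nearest genes in level to Adar and Adarb1. Some genes that this rule names are not reported here. Named sites are those of genes of known enzyme preference and of Slc7a2. Python 3.11.15, pandas 2.3.3, NumPy 2.4.6, SciPy 1.17.1 and matplotlib 3.10.9 were used. Sequences are from RefSeq (GRCm38.p6) and GENCODE M21, and no mm9 genome was used here.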

Additional observations from a re-analysis of the deposited data

How the results depend on the processing

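Of 49 values (7 genes under 7 other settings) 48 moved by less than the counting error and none of those called reversed direction. The exception was the authors' GFOLD value of Adar, -0.40 against -0.56, which is shrunken by construction. Centring on the median shifted values by 0.01. The correction for the ceiling in reads per base gave -0.62 for Adar, 0.55 for Adarb1 and 0.48 for Wwp2. The count of the 7 genes at least 2-fold apart was 0 under all 7 settings. Genes at least 2-fold apart numbered 1648 with at least 1 RPKM and 1012 with at least 5 RPKM, where fewer genes are compared. Without sites in repeats 9 of 13 sites passed the Fisher test, against 33 of 55, since fewer sites were tested. The median ratio of site levels lay between 0.159 (without repeats) and 0.312 (at least 5 reads). No paired analysis was possible because each genotype has 1 library. Depth limits differences of the size seen in Aimp2, Srsf9 and Zfr.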
